A study of Homo sapiens with 6 samples.

Results

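The RALYL window is the stretch of chromosome 8 from 85 to 86 Mb (hg19, band 8q21) that holds the gene RALYL at about 8:85095022-85834079, a span of 739058 bp. It was followed by ATAC-seq, in which a transposase cuts accessible DNA and adds sequencing adapters to it, in 22Rv1, a human prostate cancer cell line. There are 2 libraries each of cells labelled FOXA1_dTAG at 0h, 1h and 24h. The dTAG system fuses a degron to a protein so that an added compound recruits a ubiquitin ligase and the protein is destroyed. The 0h libraries carry the same FOXA1_dTAG label as the later ones, so all 6 come from tagged cells. The labels name no molecule or dose, do not say whether the cells are a single clone, and do not say whether replicates came from separate cultures, so their spread may be technical. The peak lists hold no measure of FOXA1 protein.

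Peaks overlapping the window in any of the 6 lists were merged wherever they shared at least 1 bp, which gave 53 regions of 167726 on the autosomes and X. The window was selected on measured values, the presence and loss of peaks in these lists. Of the 2888 windows of 1 Mb that held a region, none had more regions that both 0h lists held and both later lists lacked, at 1h or at 24h, and 2 others had as many at 24h. By share the window was not the highest: of the 2731 windows with at least 10 regions in both 0h lists, 7 lost a larger share at 1h and 9 at 24h. Among strong regions, defined below, no other window lost as many at either time, and of the 2156 windows with at least 10 strong regions 1 lost a larger share at 1h and 0 at 24h. Counts of lost regions are therefore a description of why the window was taken, and no test was run on them. With 2 libraries against 2, an exact two-sided permutation test could not go below a p of 0.333 in any case.

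RALYL encodes an RNA-binding protein related to RALY and to the hnRNP C proteins, and its transcripts are best known from the brain. It is a very long gene, and 40 of the window's regions overlap its span, while 3 lie below its lower end and 10 above its upper end. In a table of GRCh38 genes the protein-coding neighbours of RALYL are SNX16 on the lower side and LRRCC1 on the upper side. FOXA1 is a forkhead pioneer factor of luminal prostate cells, able to bind DNA on nucleosomes and to help open distal regulatory elements to other factors such as the androgen receptor. The time points ask how open regions behave early and late after degradation is triggered.

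The window held fewer peaks at each later time. The 0h lists held 39 and 39 peaks there, the 1h lists 30 and 29, and the 24h lists 18 and 20. All later libraries lay below both 0h libraries, and both 24h libraries lay below both 1h libraries. The mean was 29.5 ± 0.707 peaks at 1h and 39 ± 0 at 0h (SD, n = 2 each), which is 24.4% fewer at 1h, while the mean length of the whole lists was 6.18% lower. At 24h it was 19 ± 1.41 peaks against 39 ± 0 at 0h (SD, n = 2 each), 51.3% fewer, while the whole lists were 11.3% shorter. Peaks covered 16264 and 11790 bp of the window in the 0h lists, 11605 and 10479 bp in the 1h lists, and 6578 and 7446 bp in the 24h lists.

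Background pileup differed between libraries, within a time as well as between times. The commonest background pileup, recovered from the deposited fold and p-value of each peak on chromosome 8, was 1.62 and 0.915 tags in the 0h lists, 1.40 and 1.38 in the 1h lists, and 1.08 and 0.958 in the 24h lists. The 0h lists held both the highest and the lowest value. It depends on the number of reads and on fragment length, and the shortest peak, which reflects fragment length, ran from 111 to 172 bp over the lists. The faintest peaks called in the window had 8 and 5 tags at the summit in the 0h lists, 8 and 7 in the 1h lists, and 7 and 6 in the 24h lists. These limits differed by at most 3 tags between libraries. With all lists cut to one length, the regions absent from both later lists numbered 12 for 1h and 14 for 24h. The part of depth in the loss of faint regions was not tested further.

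**Figure D1:**
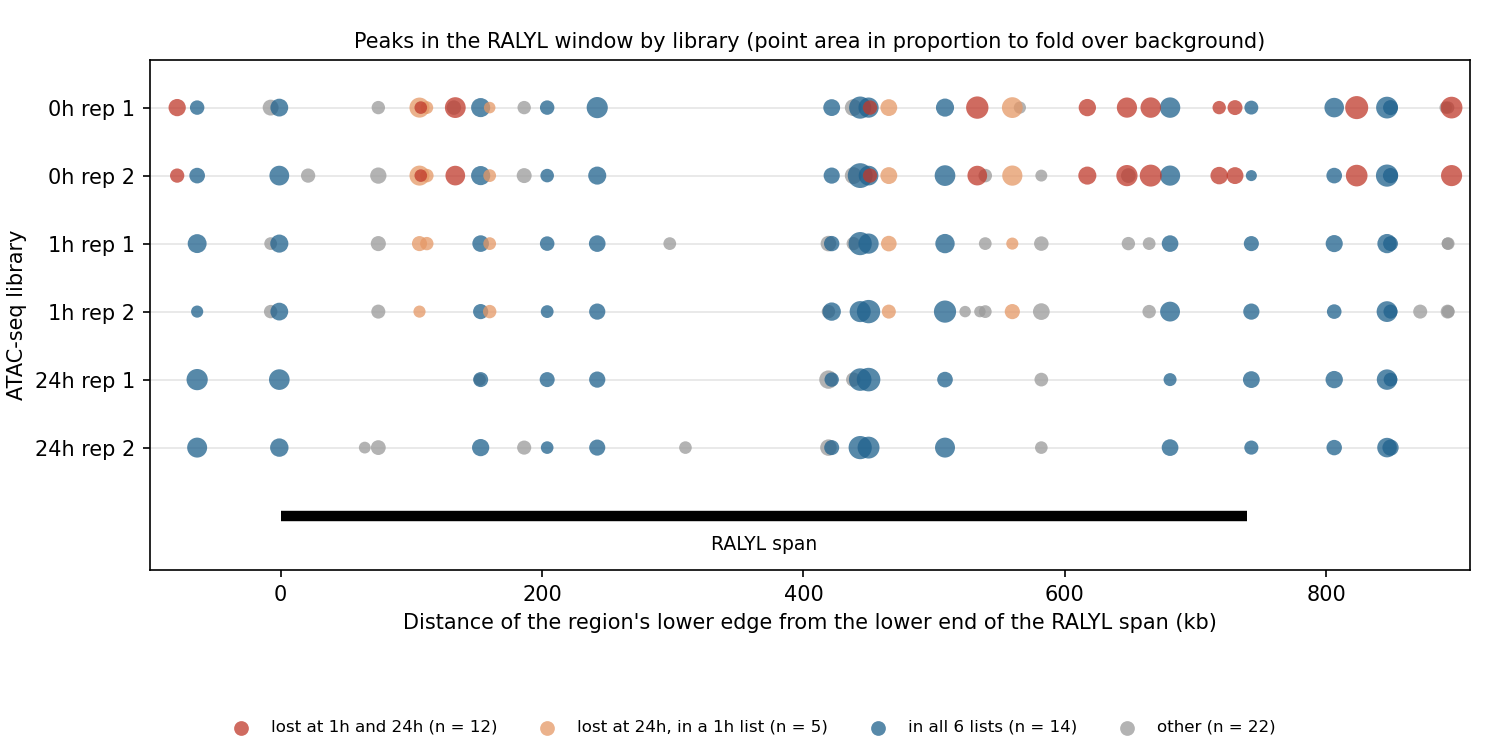
Peaks of the RALYL window in each of the 6 libraries (rows, 0 h at the top), placed by distance in kb from the lower end of the RALYL span (black bar), with point area in proportion to the deposited fold over background. The 12 red regions appear in the 0h rows only, the 5 orange ones reach the 1h rows, and the 14 blue ones run through all 6 rows.

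Of the 34 regions with a peak in both 0h libraries, 13 (38.2%) had none in either 1h library and 17 (50%) had none in either 24h library. Over the autosomes and X these shares were 7.48% at 1h and 13.1% at 24h. The remaining regions of the 34 were 14 with a peak in all 6 libraries (41.2%, against 73.1% over the autosomes and X) and 3 with a peak in a single 24h library. A region was called strong where both 0h libraries held a peak with a −log10 q of at least 10, and 18 of the 34 were. Of these, 7 (38.9%) had no peak at 1h and 9 (50%) none at 24h, against 1.51% and 4.02% of the strong regions over the autosomes and X. The other 9 strong regions were all in the lists of all 6 libraries, so no strong region was left in between. Just inside the limit stood 8:85944173-85944623, with −log10 q of 15.1 and 10.3, and just outside it 8:85560333-85560751 and 8:85533159-85533402, each with 11.55 and 9.52. Since both comparisons use the same 0h libraries, their counts are not independent of each other.

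Of the 17 regions lost at 24h, 12 were also absent from both 1h lists. Over the autosomes and X, 13019 regions of both 0h lists had no 24h peak, and 7438 had no 1h peak. The regions in both of these sets were not counted, so at most 7438 of the 13019 can have been absent at both times. Whether the split of 12 and 5 is particular to the window was not tested. The strongest of the 12 by its percentile of fold within the 0h lists was 8:85918291-85918851, 823 kb above the lower end of RALYL and outside the gene. Its folds over background were 13.6 and 12.01 at 0h, from 36 and 22 tags at the summit. It was followed by 8:85990951-85991485, also outside the gene, with folds of 12.1 and 11.4 and 51 and 29 tags. The faintest summits called in the window at 1h had 8 and 7 tags, and neither region had a peak of any size at 1h. Tags were not scaled for the depth of each library, and a detection limit was not tested.

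Inside RALYL, 4 of the 5 strong regions of this kind lay in the upper part of the gene's span. The region 8:85760743-85761313 had folds of 10.7 and 12.35 at 0h over peaks of 519 and 531 bp, with 39 and 33 tags. Next by percentile of fold at 0h came 8:85628032-85628509, with folds of 12.8 and 9.92. Close behind, 8:85742520-85742991 had folds of 10.4 and 11.5 with 35 and 26 tags, and 8:85712226-85712742 was weaker, with 7.68 and 8.35. Nearer the lower end of the gene, 8:85228659-85229011 had folds of 11.1 and 9.92. These 5 all met the limit for a strong region, and no later list held a peak at any of them.

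The other 5 of these 12 regions were fainter. At 8:85015811-85016293, below the gene, the folds were 7.64 and 5.22. Within the gene, 8:85813142-85813486 had 4.58 and 7.83, and 8:85825203-85825505 had 5.73 and 7.31. The faintest, 8:85202226-85202441, had folds of 4.09 and 4.09 from 10 and 8 tags, close to the faintest summits called at any time. The last, 8:85545962-85546549, had folds of 5.31 and 5.22 and lay 419 bp from a region that kept its peak in all 6 libraries.

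A further 5 regions, all inside RALYL, kept a peak in at least 1 of the 1h lists before they were absent from both 24h lists. For the strongest of them, 8:85654803-85655186, the folds were 11.1 and 10.4 in the 0h lists and 3.75 and 5.89 in the 1h lists, with no peak in the 24h lists. The tags at its summit were 28 and 19 in the 0h lists and 8 and 13 in the 1h lists, so both measures were lower at 1h in each library. For 8:85201237-85201769 the folds were 10.3 and 10.3 in the 0h lists and 5.83 and 3.78 in the 1h lists, again with no peak in the 24h lists. The percentiles of fold of 8:85654803-85655186 were 86.1 and 78.55 in the 0h lists and 11.6 and 47.55 in the 1h lists, and those of 8:85201237-85201769 were 82.3 and 77.55 in the 0h lists and 47.5 and 11.3 in the 1h lists. At each region both 1h percentiles were below both 0h percentiles, near the middle in one 1h list and low in the other.

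The rest of these 5 regions were weaker to begin with. At 8:85560333-85560751 the folds were 7.25 and 7.31 in the 0h lists and 6.25 and 5.04 in the 1h lists. At 8:85254882-85255169 they were 3.44 and 4.18 in the 0h lists and 4.17 and 4.62 in the 1h lists, so the groups overlapped. The last, 8:85206806-85207047, had 4.20 and 4.70 in the 0h lists and 4.58 in a single 1h list. None of the 5 was strong in either 1h library.

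**Figure D2:**
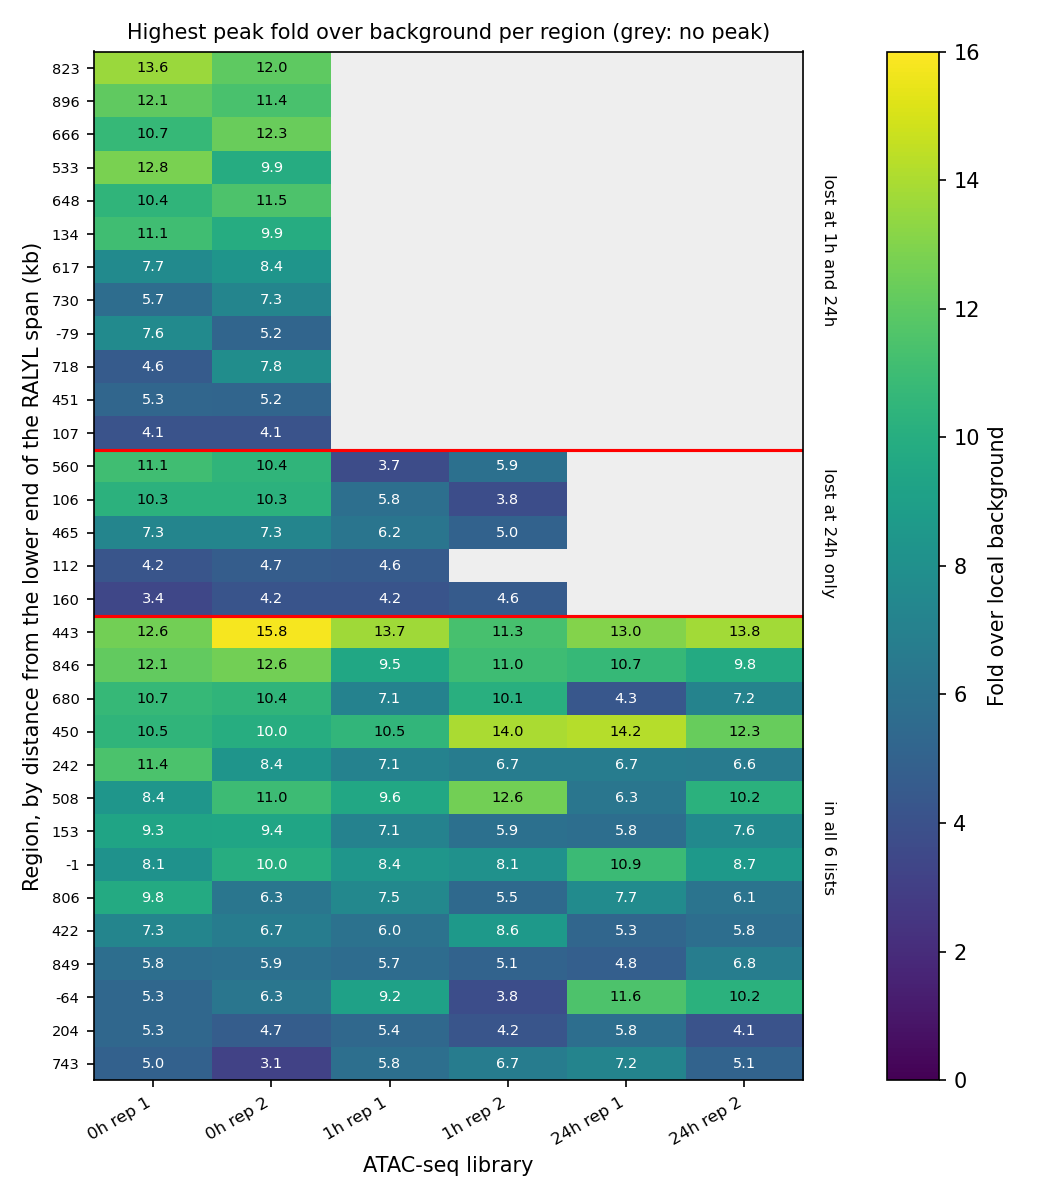
Highest fold over local background (colour and printed value) for the 31 regions that were lost at 24h or held in all 6 lists, one row per region labelled by its distance in kb from the lower end of the RALYL span, and one column per library from 0 h to 24 h; grey means no peak. The 12 rows at the top have values at 0h only, from 4.09 to 13.6 in 0h replicate 1, where the kept rows at the bottom run from 4.96 to 12.6. In that library the 7 strong rows among the 12 run from 7.68 to 13.6, and the 9 strong kept rows from 5.75 to 12.6.

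Lost and kept regions of the window overlapped in strength at 0h. In the 2 libraries of 0h, the 9 strong regions lost at 24h had median folds of 11.1 and 10.4, and the 9 strong regions kept in all libraries had 10.5 and 9.99. Their ranges overlapped, from 7.68 to 13.6 for lost and 5.75 to 12.6 for kept regions in replicate 1, and from 8.35 to 12.35 for lost and 5.93 to 15.8 for kept regions in replicate 2. Over the autosomes and X, strong lost regions had lower medians than strong kept ones, at 8.89 and 9.06 against 9.42 and 10.45. Widths overlapped too: peaks of the strong lost regions had medians of 472 and 318 bp, and those of the strong kept regions 441 and 371 bp. Over all strengths, the 17 lost regions had median folds of 7.68 and 8.35 and the 14 kept regions 8.87 and 8.88. These values come from the lists that chose the window and are a description only.

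**Figure D3:**
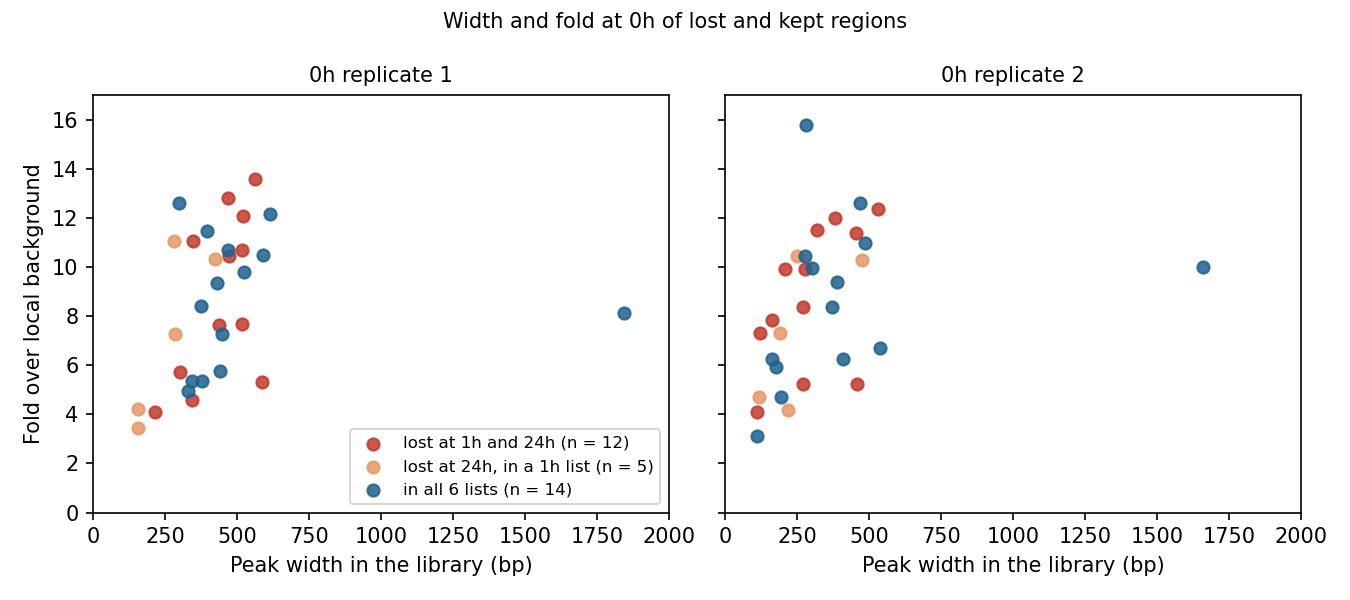
Fold over local background against peak width at 0h, 1 panel per 0h library, for the 12 regions lost at 1h and 24h, the 5 lost at 24h that still had a 1h peak, and the 14 kept in all 6 lists. Red and blue points overlap over most of their range; the single wide peak, of 1845 and 1659 bp, is the kept region at the lower end of RALYL.

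Open chromatin at the lower end of RALYL persisted. The region 8:85093964-85095825 spans the lower end of the gene and was the widest of the window, with peaks of 1845 and 1659 bp in the 0h lists, 1585 and 1568 bp in the 1h lists, and 1353 and 1524 bp in the 24h lists. Its folds were 8.14 and 9.99 in the 0h lists, 8.40 and 8.11 in the 1h lists, and 10.9 and 8.67 in the 24h lists. Folds at 0h overlapped those at 1h and those at 24h, while both 24h folds lay above both 1h folds. Both 1h widths and both 24h widths lay below both 0h widths. The width also depends on the fragment length of each library, and its part here was not tested. A peak reports that the chromatin is open and not whether the gene is transcribed.

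Inside the gene, the strongest kept region was 8:85538385-85538747, with folds of 12.6 and 15.8 in the 0h lists, 13.7 and 11.35 in the 1h lists, and 13 and 13.8 in the 24h lists. It stayed between the percentiles of 87.9 and 96.4 of every list. Just 6.07 kb above it, 8:85544819-85545542 had folds of 10.5 and 9.96 in the 0h lists, 10.5 and 13.97 in the 1h lists, and 14.2 and 12.3 in the 24h lists. Both 24h folds lay above both 0h folds there. The lost region 8:85545962-85546549 lies 419 bp from it, so a kept and a lost site stand side by side here.

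Among the 14 kept regions, both 24h percentiles lay below both 0h percentiles in 5, above them in 3, and overlapped in 6. Over all regions with a peak in all 6 libraries, 26.4% lay below and 20% above in the same way. The window's counts of 5 and 3 are 35.7% and 21.4% of 14 regions. At 1h, 3 of the 14 lay below and 2 above, against 19.2% and 23.4% over the autosomes and X. The differences from the background were not tested and rest on a few regions.

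The largest drop in mean percentile among kept regions was at 8:85775491-85775961, in the upper part of RALYL, to 36.9 at 24h against 81.5 at 0h. Its folds were 10.7 and 10.4 in the 0h lists, 7.08 and 10.1 in the 1h lists, and 4.33 and 7.15 in the 24h lists. At 8:85247984-85248457 the folds were 9.34 and 9.40 in the 0h lists, 7.08 and 5.89 in the 1h lists, and 5.78 and 7.61 in the 24h lists. A like order appeared at 8:85337255-85337771, with 11.45 and 8.35 in the 0h lists, 7.08 and 6.73 in the 1h lists, and 6.74 and 6.64 in the 24h lists. Outside the gene, 8:85941563-85942178 had percentiles of 90.6 and 88.5 in the 0h lists, 79.0 and 86.6 in the 1h lists, and 81.7 and 78.3 in the 24h lists. The fifth, 8:85516660-85517218, had folds of 7.25 and 6.69 in the 0h lists, 6.05 and 8.61 in the 1h lists, and 5.29 and 5.79 in the 24h lists. At each of these 5 regions every 24h value was below both 0h values.

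Other kept regions were higher at 24h or overlapped. Below the gene, 8:85031100-85031519 had folds of 5.35 and 6.27 in the 0h lists, 9.17 and 3.78 in the 1h lists, and 11.6 and 10.2 in the 24h lists. Both of its 24h folds were higher than both 0h folds, and its 1h folds lay on either side of the 0h folds. At 8:85603357-85603917 the folds were 8.40 and 10.96 in the 0h lists, 9.58 and 12.6 in the 1h lists, and 6.26 and 10.2 in the 24h lists, with overlapping groups. The median percentile of the 14 regions was 73.2 and 68.8 in the 0h lists, 62.8 and 63.0 in the 1h lists, and 53.3 and 60.7 in the 24h lists. Over all regions kept in 6 lists the medians were 66.8 and 68.9, 66.8 and 68.8, and 63.1 and 67.5 at the same times. In the window both 24h medians were below both 0h medians, while over all kept regions the libraries of the 2 times overlapped.

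**Figure D4:**
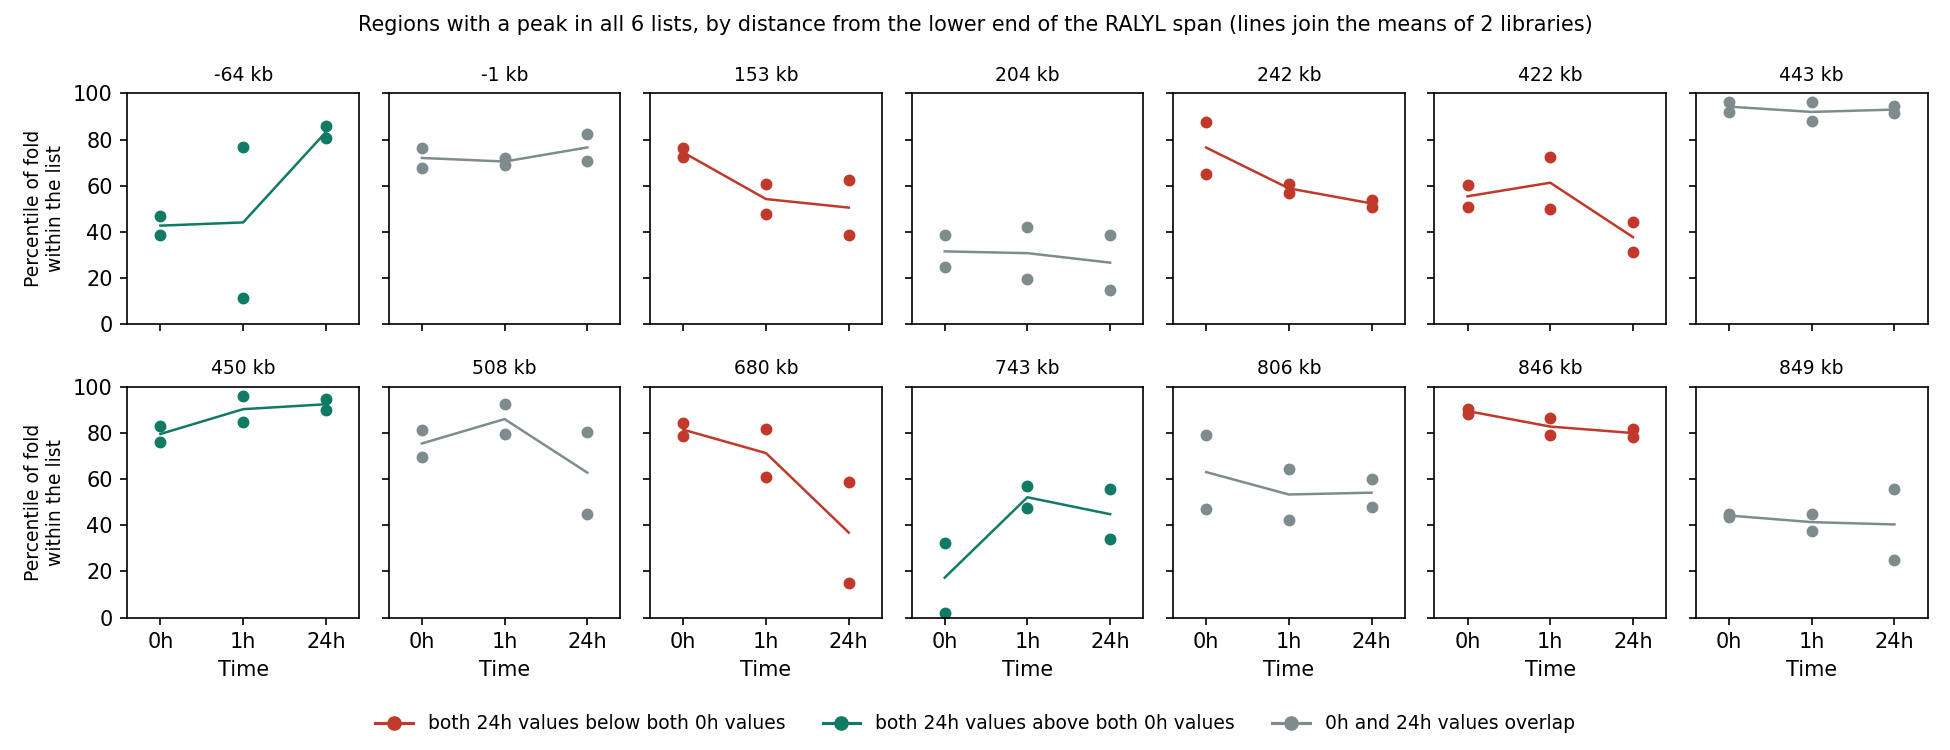
Within-list percentile of fold for each of the 14 regions with a peak in all 6 lists, 1 panel per region titled by its distance in kb from the lower end of RALYL; points are libraries and lines join the means of 2 libraries at 0h, 1 h and 24h. In 5 panels both 24h points lie below both 0h points, in 3 above, and in 6 they overlap.

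Gains were few. A single region of the 16 with a peak in both 24h libraries (6.25%) had none at 0h, against 6.54% over the autosomes and X. This was 8:85514168-85514461 inside RALYL, with no peak at 0h, folds of 6.22 and 4.62 (14 and 10 tags) in the 1h lists, and 8.66 and 6.98 (17 and 13 tags) in the 24h lists. It was already in both 1h lists, and both 24h folds were higher than both 1h folds. At 1h, 3 of 26 regions (11.5%) had no peak at 0h, against 3.93%; the other 2, 8:85759494-85759780 and 8:85987918-85988221, were faint, with folds of 3.75 to 4.98, and had no peak at 24h. The first of these lies between strong lost regions and did not overlap them.

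The remaining regions were faint or irregular. In 3, both 0h libraries and a single 24h library held a peak. At 8:85533159-85533402 the folds were 7.25 and 7.31 at 0h, 4.58 in 1 of the 1h libraries and 5.30 in 1 of the 24h libraries. At 8:85281318-85281592 the folds were 4.58 and 5.74 in the 0h lists, with no 1h peak and 5.11 in a single 24h list. Of the others, 11 were in a single list, namely 4 at 0h, 4 at 1h and 3 at 24h, and 5 were in 2 to 5 lists without fitting a pattern of loss or gain. With the 12, 5, 14, 3 and 3 regions above, these make up the 53.

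Of the 34 regions in both 0h lists, 26 overlapped the RALYL span and 8 lay outside it. Of the 17 lost at 24h, 14 overlapped the span and 3 lay outside it, and of the 14 kept regions 9 and 5 did. The distance from a lost region to the nearest region kept in all 6 lists ran from 419 bp to 62.7 kb, with a median of 24.1 kb. From a kept region of the window to the nearest other kept region it ran over a like range, from 1994 bp to 62444 bp. The stretch of 172 kb between the kept regions 8:85603357-85603917 and 8:85775491-85775961 held 5 of the 9 strong lost regions. There, the 0h lists had a peak in 6 and 8 regions, the 1h lists in 5 and 6, and each 24h list in 1. The sole region left in it at 24h, 8:85677023-85677625, had folds of 4.81 and 4.09 at 24h and had been absent from 1 of the 0h lists. A stretch of 179 kb in the middle of the gene held no region with a peak at 0h at all. These stretches were picked after their values were seen.

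The RALYL window held more strong losses than the windows beside it. Among strong regions, 9 of 18 in the RALYL window were lost at 24h, against 1 of 6 from 84 to 85 Mb and 0 of 9 from 86 to 87 Mb. Of all regions held by both 0h libraries, 17 of 34 (50%) were lost in the RALYL window, 4 of 15 (26.7%) in the lower neighbour and 4 of 36 (11.1%) in the upper one. The window from 83 to 84 Mb had a higher share of all its regions lost than the RALYL window, 10 of 17 (58.8%), with 2 of 8 strong ones. At 1h the RALYL window had 7 strong losses and the upper and lower neighbours 0. On the rest of chromosome 8, 13.7% of regions and 3.90% of strong regions were lost at 24h. The differences were not tested, since the window was taken for its losses.

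**Figure D5:**
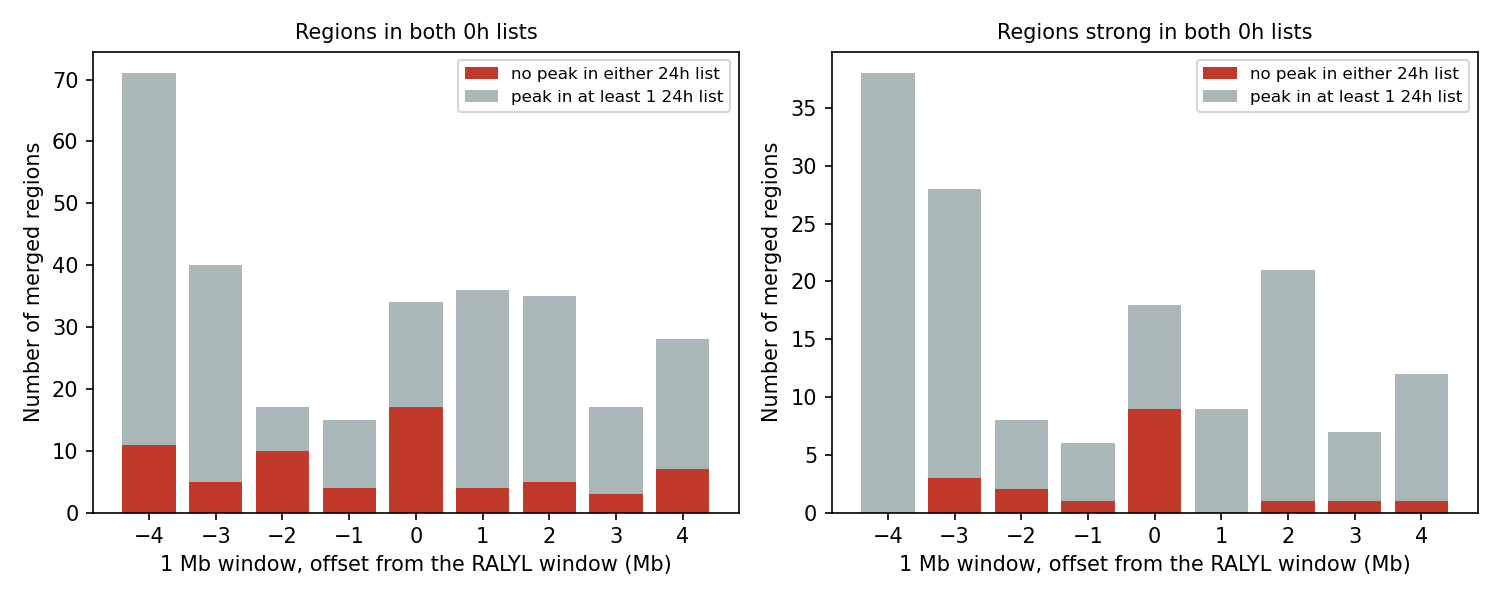
Number of merged regions per 1 Mb window of chromosome 8, from 4 Mb below to 4 Mb above the RALYL window (offset 0), for regions in both 0h lists (left) and regions strong in both (right), divided by whether either 24h list had a peak. In the right panel the RALYL window has 9 of 18 strong regions without a 24h peak, and no other window shown has more than 3.

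The edges of the window fell in gaps between regions. The first region inside it, 8:85015811-85016293, had peaks at 0h only, and the last below it, 8:84932470-84932697, had peaks in 5 of the 6 lists, with folds of 4.96 and 10.4 at 0h, 3.75 in a single 1h list, and 5.29 and 4.598 at 24h. At the upper edge, the last region inside was the strong lost 8:85990951-85991485. The next one, 8:86018899-86020234, had a peak in all lists, with folds of 10.5 and 12.5 in the 0h lists, 11.9 and 10.45 in the 1h lists, and 10.7 and 10.9 in the 24h lists.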

How the data were processed

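ATAC-seq peaks of 22Rv1 cells were taken from 1 deposited list per library; replicates were not pooled. FastQC, fastp, Bowtie2 and MACS2 were used on hg19, per the submitters' processing notes, which give no versions or settings. For read shifting and duplicate removal, no source used here gives a setting. Each deposited peak carries a fold, the ratio of its summit pileup to the local background, a −log10 p, a −log10 q and a score of 10 times the −log10 q, all computed by the authors' peak caller. Folds were ranked within their own list, as percentiles over its peaks on the autosomes and X.

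Peaks were merged at an overlap of 1 bp, and a region was lost where both 0 h libraries and neither later library held a peak, gained in the reverse case. Tags at a summit were recovered from fold and −log10 p, taking the fold to hold a pseudocount of 1 and the p to be Poisson. Whole tags then matched the deposited p to within 0.001 (on the −log10 scale) for 100% of the peaks of chromosome 8 in each list. Python 3.11.15, numpy 2.4.6, pandas 2.3.3 and scipy 1.17.1 were used, and merging, calling and recovery were tested on simulated data. Lists had 101755 to 125396 peaks on the autosomes and X, and at most 25 intervals were identical between any pair.

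The rule for named regions took the 8 strongest lost at 24 h, the 8 strongest kept, up to 5 gained and up to 5 held by a single 24 h library; other regions were named after their values were seen. The window, the rule and the alternatives were chosen with earlier results of these data known. The RALYL span came with the definition of the window, and its length equals that in a GRCh38.p14 gene table, from which only gene order was taken. No hg19 sequence or exon annotation was used here, so motifs, exons and introns were not analysed.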

Additional observations from a re-analysis of the deposited data

How the results depend on the processing

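Of 86 values recomputed for 9 counts and differences of the RALYL window, 64 stayed close to the reported value (counts within 1.5 times, differences in peak number within the spread between replicates) and 22 moved. Only the differences in peak number could change sign, since counts cannot be negative, and none of the differences did. When only peaks of −log10 q 10 or more counted as present, 18 regions were in both 0h lists. Of these, 10 (55.6%) had no such peak in either 1h list, and 11 (61.1%) had none in either 24h list. The main setting gave 38.2% and 50% of 34 regions, and 7 (38.9%) and 9 (50%) of the 18 strong regions. At this limit a region also counted as lost where every later peak was weaker than 10. An example is 8:85337255-85337771, with −log10 q of 8.67 and 8.15 in the 24h lists. With weaker peaks left out, the share over the autosomes and X was not computed. Under that limit, regions gained at 1h numbered 0 and regions in all 6 lists 4. At a limit of 5, 1 region was gained at 1h. Under a required cover of 50% of the region, 7 were in all 6 lists, and inside the RALYL span 9 were. With a strong limit of 20 in place of 10, 4 of 7 strong regions were lost at 1h and 4 of 7 at 24h. At the limit of 10 these were 7 of 18 and 9 of 18. The share of strong regions lost over the autosomes and X was computed at the limit of 10 only, and was 1.51% at 1h and 4.02% at 24h. The difference in peaks, −20 at 24h and −9.5 at 1h, was −16 and −13 for a −log10 q limit of 5, −13.5 and −12 for a limit of 10, −16 and −8 with lists of one length, and −15 and −8 in the RALYL span. In lists of one length, losses numbered 12 for 1h and 14 for 24h, and strong losses 7 and 9.

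Without 1 library at a time, losses ran from 13 to 16 at 1h and 18 to 22 at 24h, strong losses from 7 to 8 and 9 to 11, and gains from 4 to 6 at 1h and 1 to 3 at 24h; regions in all remaining lists ran from 14 to 15. Differences in peaks ran from −10 to −9 and from −21 to −19. Fewer lists then have to meet the condition, which raises counts. Gains at 1h were 6 without 1h replicate 1 and 5 without either 0h replicate; gains at 24h were 3 without 24h replicate 1 and 2 without 24h replicate 2 or 0h replicate 2. With a replicate block, pairing libraries by number, the differences were −20 and −9.5, as without it. The strong losses at 1h and their alternatives were added after seeing the data.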
